A study of Homo sapiens with 2 samples.

Results

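The miRNA cluster of chromosome 19q13 is a run of closely spaced hairpins found only in primates, and its mature miRNAs are known above all from placenta. They were examined here in small RNA libraries from BEAS-2B cells, an immortalised line of human bronchial epithelium labelled wild type. The manganese group was 1 library from cells treated with manganese for 24 h, and the control group was 1 library from cells given vehicle for 24 h. Both groups grew in the same medium with 10% fetal bovine serum, and the sources used here do not state the manganese dose. Members were the table entries with a mature name built from 1 of 37 hairpin stems of the cluster, such as hsa-miR-512, hsa-miR-1323, hsa-miR-516b and hsa-miR-517a, with or without a copy number and an arm, whatever their counts. This gave 51 of the 2904 entries in the count table, and 5 of the 51 join several mature names in a single entry.

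The cluster is transcribed by RNA polymerase II as a long primary transcript, mainly from the paternal chromosome, and its hairpins sit between copies of Alu repeats. Each hairpin can give a mature miRNA from its 5′ side (5p arm) and from its 3′ side (3p arm), and the bases 2 to 8 of the mature strand, the seed, do most of the pairing with target mRNAs. Trophoblast cells release these miRNAs in vesicles, and they circulate in maternal blood during pregnancy. Several 3p arms share the seed core AAGUGC with the miR-302 and miR-372 families of pluripotent cells and with the growth-promoting miR-17 family. The adult bronchus is not a tissue for which the cluster is known.

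The files use build hg38, per the submitters' processing notes. In the RefSeq table of build GRCh38.p14 the cluster comprised 46 hairpins on the plus strand, at chr19:53666679-53762430, a span of 95.8 kb. No protein-coding gene of GENCODE release 29 lies between the first and the last of them (0 genes). The nearest ones are the homeobox gene DPRX, 29.7 kb before the first hairpin, and the inflammasome gene NLRP12, 31.2 kb after the last. Of the 46 hairpins, 45 were intergenic in that annotation and 1, MIR519A2, overlapped an exon of a long non-coding RNA gene, AC011453.1.

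The mature sequences of the 8 entries that reached 20 counts (both libraries summed) are shown from RefSeq, 5′ to 3′, with the seed in capitals, because the counts reported for the cluster rest mostly on them.
miR-1323: uCAAAACUgaggggcauuuucu
miR-522-5p, miR-523-5p, miR-519c-5p, miR-519b-5p, miR-519a-5p and miR-518e-5p (1 entry): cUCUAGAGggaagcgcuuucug
miR-512-3p: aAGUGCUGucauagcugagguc
miR-516b-5p: aUCUGGAGguaagaagcacuuu
miR-517b-3p and miR-517a-3p (1 entry): aUCGUGCAucccuuuagagugu
miR-526b-5p: cUCUUGAGggaagcacuuucugu
miR-516a-5p: uUCUCGAGgaaagaagcacuuuc
miR-515-5p: uUCUCCAAaagaaagcacuuucug
All 8 had different seeds, and 6 of the 8 came from 5p arms. In each of the 5 joined entries of the cluster, the names that had a RefSeq sequence shared the same mature sequence, so their counts cannot be divided among hairpins. Of 61 mature names in the 51 entries, 55 had a sequence in the table, and 46 of the entries had at least 1 such name.

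The hairpin of miR-1323, the entry with the highest counts, is at chr19:53671968-53672040 of GRCh38.p14 on the plus strand. Its mature strand, in capitals, takes bases 11 to 32 of 73, on the 5′ side.
MIR1323: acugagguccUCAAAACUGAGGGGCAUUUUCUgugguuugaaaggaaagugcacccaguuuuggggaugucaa

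The manganese library held 1091070 counts and the control library 1064179, with counts for 781 entries in the manganese library and 797 in the control library. With a single library per group nothing can be checked against replicates and no p-value is given, and each difference given here compares the libraries, not the conditions. Folds are ratios of counts scaled by library size (TMM factors), manganese over control, and intervals are exact 95% binomial intervals. They cover counting error only and contain no variation between cultures, and no molecular identifiers are mentioned in the labels. A count of 0 allows up to 3 counts, or a scaled level of 2.80 CPM (counts per 1e6 scaled counts) in the manganese library and 2.76 CPM in the control library. Mature sequences of the cluster were 18 to 25 bases long, so levels were not divided by length. In such bulk libraries a change in the number of cells that hold an miRNA cannot be told apart from a change per cell.

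Summed over all 51 entries, the cluster had 831 counts in the manganese library, against 71 in the control library. This was 0.0762% of all manganese counts (0.0711 to 0.0815) and 0.00667% of all control counts (0.00521 to 0.00842). The fold was 11.9 (9.31 to 15.4), and it needs no filter on low counts. Counts were found in the manganese library for 26 of the 51 entries and in the control library for 13 of the same 26. Of all 2904 entries, 33.2% had counts in at least 1 library. Of the 781 entries with manganese counts, 21.5% were at 0 in the control, against 13 of 26 in the cluster. This last comparison selects entries by their manganese counts and takes no account of abundance, so it is no independent support. No entry of the cluster had more control than manganese counts (0 entries). The cluster was a small part of both libraries.

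**Figure D1:**
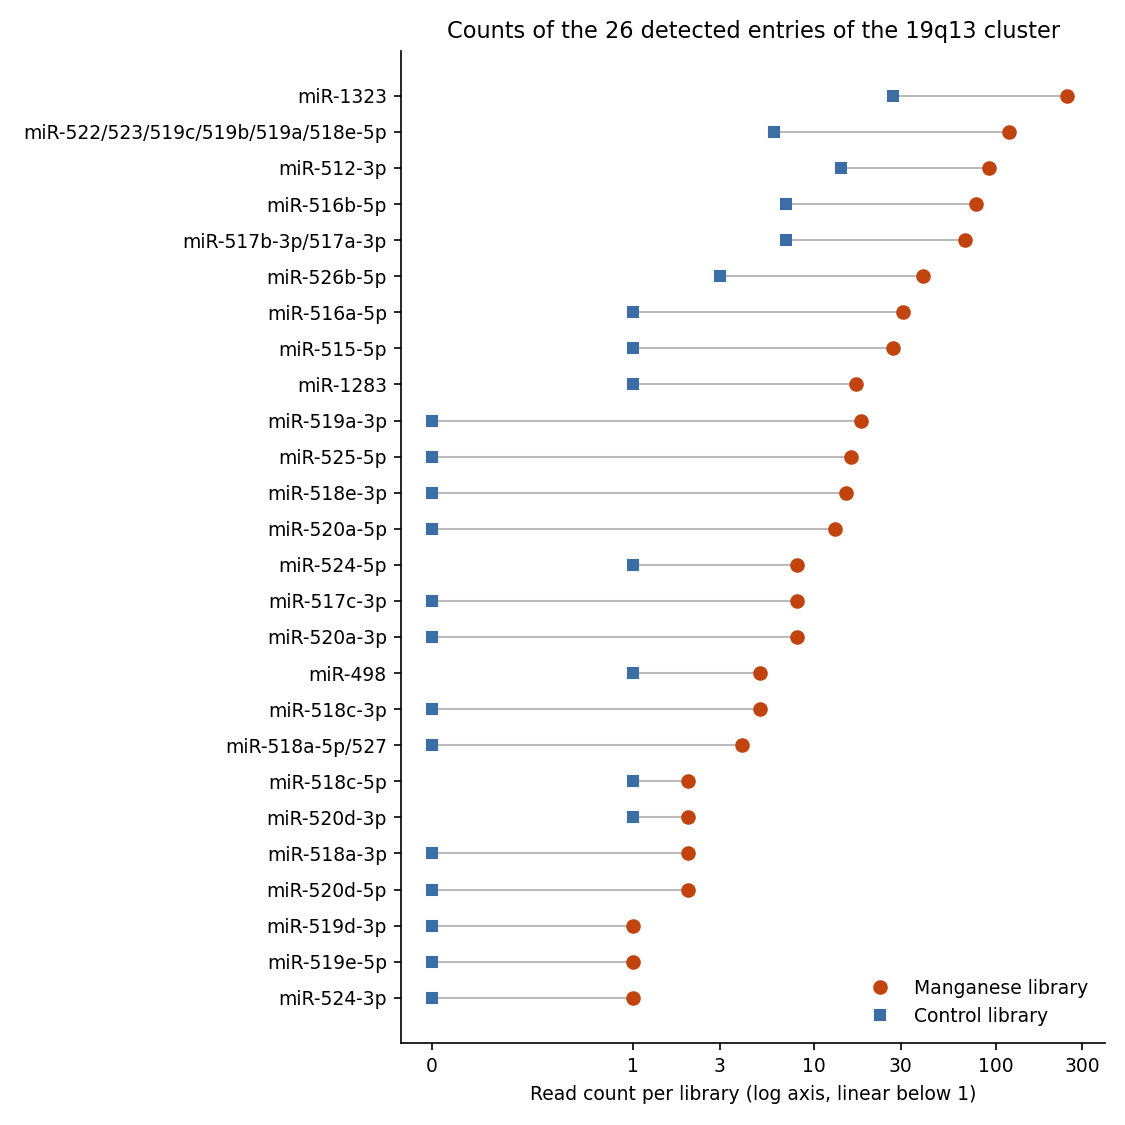
Read counts of the 26 entries of the cluster that had counts, 1 row per entry, with the manganese library as circles and the control library as squares on a log axis that is linear below 1. Every circle lies to the right of its square, from 248 against 27 counts for miR-1323 to 1 against 0 for miR-519d-3p, miR-519e-5p and miR-524-3p.

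Most counts of the cluster came from 5p arms. The 5p arms had 602 counts in the manganese library and 48 in the control library, a fold of 12.7 (9.47 to 17.4). The 3p arms had 220 counts with manganese and 22 in the control, a fold of 10.1 (6.53 to 16.5), so the intervals of the arms overlap. For entries without an arm in the name, the arm was read from the position of the mature sequence in its hairpin. Of the 51 entries, 19 were 5p and 28 were 3p, while 4 could not be given a single arm.

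The 5p entry with the highest counts was miR-1323, with 248 counts in the manganese library and 27 in the control library. Its scaled level was 232 CPM with manganese and 24.9 CPM in the control, and it ranked 105th among all entries with manganese and 274th in the control. The fold was 9.32 (6.25 to 14.4). Leaving miR-1323 out, the other 50 entries had 583 counts with manganese and 44 in the control, a fold of 13.4 (9.89 to 18.7), so the difference of the cluster did not rest on this entry.

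The joined 5p entry of miR-522, miR-523, miR-518e and 3 of the miR-519 hairpins had 119 counts in the manganese library and 6 in the control library, a fold of 20.1 (8.98 to 55.9). Its sequence lies in 6 hairpins spread over the cluster, from MIR519C to MIR519A1. The arm miR-516b-5p, made by both MIR516B1 and MIR516B2, had 78 counts with manganese and 7 in the control, a fold of 11.3 (5.23 to 29.04). It is 1 of the cluster's miRNAs carried by trophoblast vesicles. The arm miR-526b-5p, which comes from a single hairpin, had 40 counts with manganese and 3 in the control (13.5-fold, 4.31 to 68.4).

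The last 5p arms above 20 counts had 1 control count each, so their folds have wide intervals. The arm miR-516a-5p had 31 counts in the manganese library and 1 in the control library, a fold of 31.4 (5.24 to 1282). The arm miR-515-5p had 27 counts with manganese and 1 in the control, a fold of 27.4 (4.51 to 1121). Both are made by a pair of hairpins that hold the same mature sequence, MIR516A1 and MIR516A2, and MIR515-1 and MIR515-2. Just under 20 counts lay miR-1283, with 17 counts with manganese and 1 in the control, a fold of 17.2 (2.70 to 721).

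Among 3p arms, miR-512-3p and the miR-517 entry had the highest counts. The arm miR-512-3p, from the first hairpins of the cluster, had 92 counts in the manganese library and 14 in the control library, a fold of 6.67 (3.78 to 12.7). This was the lowest fold of the 8 entries with at least 20 counts, but its interval overlaps those of the other 7. The joined entry of miR-517b-3p and miR-517a-3p, miRNAs that are abundant in trophoblast, had 68 counts with manganese and 7 in the control, a fold of 9.86 (4.53 to 25.4). No other 3p arm reached 20 counts over both libraries.

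Of the 8 entries with at least 20 counts, all 8 were at least 2-fold higher with an interval above 1, against 12.9% of all 403 entries with that many counts, and 0 of the 8 were at least 2-fold lower, against 6.45%. The median log2 fold of the 8 was 3.63, against −0.08 over the 403. These counts describe the entries that passed and are no independent support, because only 1 of the 8, miR-1323, would have reached 20 counts through the control library alone. A selection by the control library does not depend on the manganese counts. It is no independent support either, because the members were chosen with earlier results of these data known. Of all 797 entries with at least 1 control count, 39.5% had a higher scaled level with manganese, and of the cluster's 13 such entries 13 did. Among the 381 entries with 1 to 7 control counts, a range chosen after the members' values were seen, 39.9% had a higher scaled level with manganese, and of the cluster's 11 such entries 11 did. In the same range 7.35% were at least 2-fold higher with an interval above 1, and of the cluster's 11 entries 8 were.

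**Figure D2:**
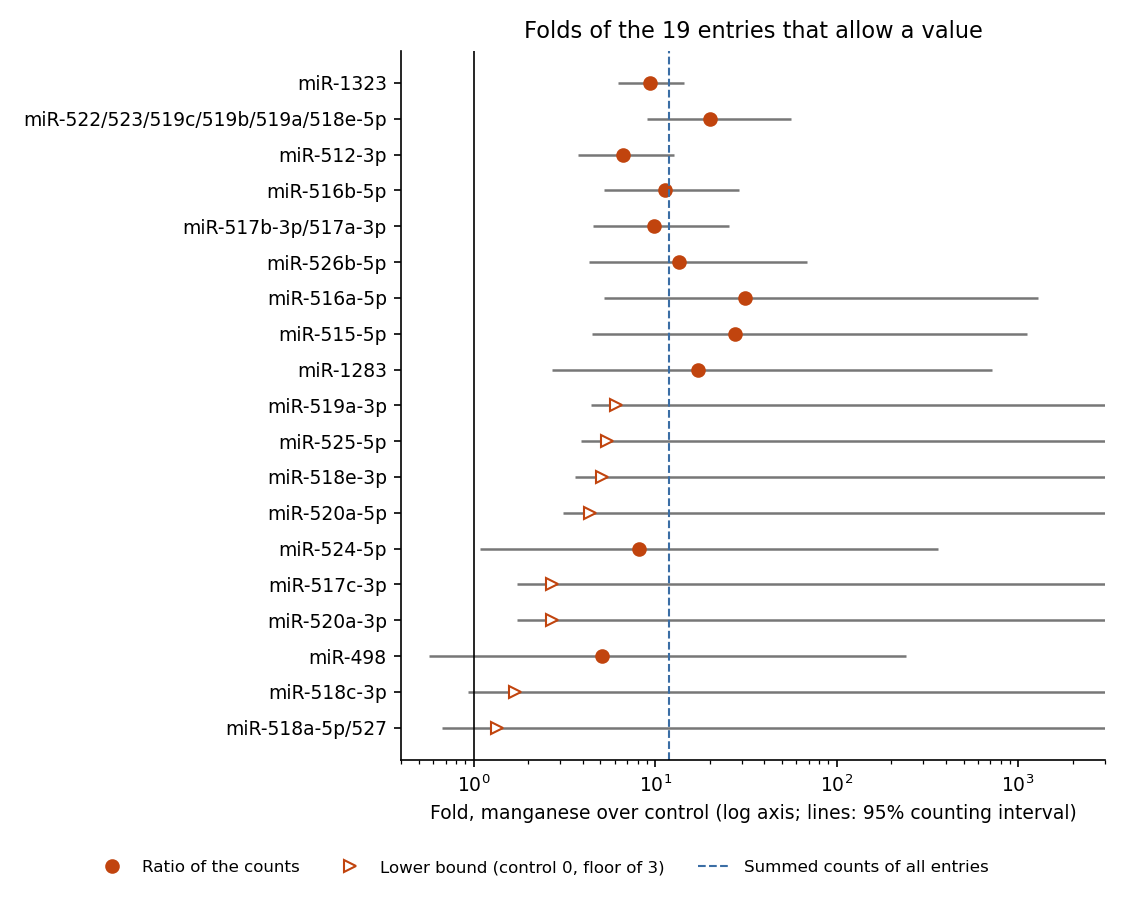
Folds, manganese over control, on a log axis for the 19 entries with more than 3 counts in at least 1 library, with lines for the exact 95% counting interval. Open triangles are entries at 0 in the control, set against a floor of 3 counts. They are lower bounds against that floor only, and their exact intervals begin lower. The dashed line is the fold of the summed counts, 11.9, which lies inside all 19 intervals. The sum includes these same entries, and intervals are wide or, for a control of 0, have no upper end, so equal folds were not tested.

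A further 13 entries had counts only in the manganese library, 94 counts in all. The highest were miR-519a-3p with 18 counts with manganese and 0 in the control and miR-525-5p with 16 with manganese and 0 in the control. They were at least 6.09-fold and 5.41-fold higher, taking the floor of 3 counts for the control. Next came miR-518e-3p with 15 counts with manganese and 0 in the control (at least 5.07-fold higher) and miR-520a-5p with 13 with manganese and 0 in the control (at least 4.40-fold higher). The exact interval, which covers error in both counts, began lower, at 4.46-fold, 3.91-fold, 3.64-fold and 3.09-fold for these 4 in turn. Of all 2107 entries at 0 in the control, 0.522%, or 11 entries, had at least 10 manganese counts. Of these 11, 4 were members of the cluster, and miR-517-5p was another, with 13 counts with manganese and 0 in the control. These entries were selected by their manganese counts, so the count is no independent support. The entry miR-517-5p is made by 3 hairpins of the cluster, but its name lacks the letter of the stems MIR517A, MIR517B and MIR517C, so the rule did not take it in. With it the fold of the summed counts was 12.1 (9.46 to 15.6).

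Counts were low for the rest. The arm miR-524-5p had 8 counts with manganese and 1 in the control (8.12-fold, 1.09 to 360). The arms miR-517c-3p and miR-520a-3p each had 8 counts with manganese and 0 in the control. They were 2.71-fold higher against the floor, and their exact intervals began at 1.73-fold. For miR-498 (5 with manganese and 1 in the control), miR-518c-3p (5 with manganese and 0 in the control) and the entry of miR-518a-5p and miR-527 (4 with manganese and 0 in the control) the interval held 1-fold. Another 7 entries had 1 or 2 manganese counts and 0 or 1 control counts, too few for a fold. The other 25 entries were listed at 0 in both libraries, 17 of them 3p arms.

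Arms of the same hairpin were often unequal, as is usual for miRNAs. The 3p arm of miR-512 had 92 counts with manganese and 14 in the control, while miR-512-5p was at 0 in both libraries. For miR-515, miR-516a, miR-516b, miR-525 and miR-526b it was the 5p arm that had counts, and the 3p entry was at 0 in both. The hairpin MIR520A gave counts from both arms, with 13 for miR-520a-5p and 8 for miR-520a-3p with manganese and 0 for each in the control. Both arms also had counts for miR-518a, miR-518c, miR-520d and miR-524, with 1 to 8 manganese counts per entry. For miR-518e and miR-519a they did too, but the 5p arms lie in the joined miR-522-5p entry.

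For several seeds, the entries that share the seed had unequal counts. The seed UCUAGAG belongs to 3 entries, and all of its 119 manganese and 6 control counts were in the joined entry of miR-522-5p and its copies. The joined entry of miR-526a, miR-520c-5p and miR-518d-5p was at 0 in both libraries, although its sequence differs from that entry at a single base (G15A, with the base of the miR-522-5p entry first and positions counted from 1 at the 5′ end). The sequences of these entries, and of the miR-517 3p arms that differ by C12U (miR-517b-3p first), are shown to make these single-base differences visible.
miR-522-5p and copies: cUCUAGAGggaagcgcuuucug
miR-526a, miR-520c-5p and miR-518d-5p: cUCUAGAGggaagcacuuucug
miR-517b-3p and miR-517a-3p: aUCGUGCAucccuuuagagugu
miR-517c-3p: aUCGUGCAuccuuuuagagugu
For the seed UCGUGCA, the entry of miR-517b-3p and miR-517a-3p had 68 counts with manganese and 7 in the control, and miR-517c-3p had 8 with manganese and 0 in the control. How the authors' counting divided reads among such near-identical sequences is not stated in the labels, so these splits are uncertain. Summed over the seed, UCGUGCA had 76 counts with manganese and 7 in the control (11.0-fold, 5.09 to 28.3).

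The seed UCCAGAG, of miR-520a-5p and miR-525-5p, had 29 counts in the manganese library and 0 in the control library. This was 9.81-fold higher against the floor, with an exact interval that began at 7.48-fold. Here the split was nearly even, with 13 manganese counts for miR-520a-5p and 16 for miR-525-5p. The seed UCUCCAA, of miR-515-5p and miR-519e-5p, had 28 with manganese and 1 in the control (28.4-fold, 4.70 to 1162). The seed AAGUGCA belongs to miR-519a-3p, miR-519b-3p and miR-519c-3p, and all of its 18 manganese counts were in miR-519a-3p, with 0 in the control.

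The AAGUGC core was searched on the given strand within bases 1 to 9 of the mature sequences. It was found in 13 of 46 different mature sequences of the cluster (28.3%) and in 31 of 2351 of all human mature sequences in the table (1.32%). Cluster entries with the core had 121 counts with manganese and 15 in the control (8.18-fold, 4.77 to 15.1). Of these, miR-512-3p gave 92 with manganese and 14 in the control. In miR-512-3p the core begins at base 1, so its seed, AGUGCUG, does not hold the whole core. The sum therefore mostly reflects an entry without the full core in its seed. Outside the cluster, 16 entries had the core, and the 4 with counts were miR-93-5p, miR-106b-5p, miR-20a-5p and miR-17-5p of the miR-17 family. Together they had 4099 counts with manganese and 6356 in the control, a fold of 0.654 (0.629 to 0.681). The pluripotency miRNAs miR-302a-3p to miR-302d-3p, miR-372-3p and miR-373-3p, which share the seed AAGUGCU with miR-520a-3p, were at 0 in both libraries.

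Many of the 5p arms hold a different run of letters. The letters GCACUUU, searched on the given strand, occurred in 12 of the 46 cluster sequences (26.1%), all of them among the 19 5p entries, and in 17 of the 2351 (0.723%). Cluster entries with them were 14.7-fold higher in the manganese library (8.57 to 27.4), with miR-516b-5p, miR-526b-5p, miR-516a-5p and miR-515-5p as the highest. The related letters GCGCUUU occurred in 4 of the 46 (8.70%) and in 6 of the 2351 (0.255%), with 136 counts with manganese and 7 in the control, from the joined miR-522-5p entry and miR-1283. The other 3 of the 19 5p entries hold neither run, and miR-1323, which has the highest counts, is 1 of them. A match in these letters describes the sequence and is not a binding site.

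Along the cluster, manganese counts were found from the first hairpins to the last, where shared entries are taken at each of their hairpins. Entries made by a single hairpin had 370 counts with manganese and 33 in the control, a fold of 11.4 (7.96 to 16.8). Entries shared by several hairpins had 456 with manganese and 37 in the control, a fold of 12.5 (8.93 to 18.0), and these intervals overlap. Before the midpoint of the span, entries of a single hairpin had 343 counts with manganese and 32 in the control. After it they had 27 with manganese and 1 in the control. MIR1323, 5.29 kb from the start of the cluster, gave most of the counts that can be placed at a single hairpin. The last hairpin with an entry of its own and counts was MIR517C, at 74.6 kb, where miR-517c-3p had 8 counts with manganese and 0 in the control.

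**Figure D3:**
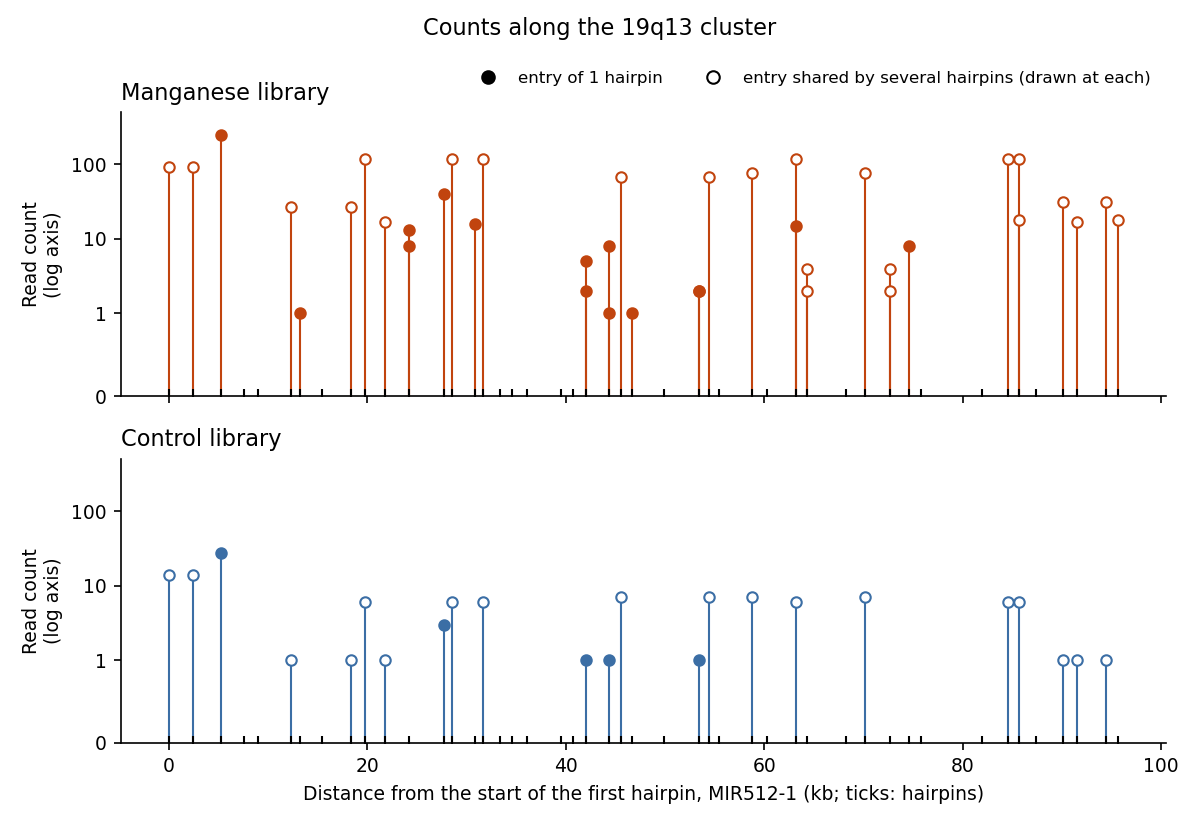
Read counts along the cluster in the manganese library (top) and the control library (bottom), on a log axis that is linear below 1, against the distance in kb from the start of MIR512-1, with a tick for each hairpin. Filled points are entries of 1 hairpin. Open points are entries shared by several hairpins, drawn at each of them, so their counts cannot be placed. Past the midpoint of the span, the filled points hold 27 counts in the manganese library and 1 in the control library.

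The 5 highest entries of the cluster were the same 5 in both libraries. The top 2 entries of each library held 44.2% of the cluster's counts with manganese and 57.7% in the control, and the top 3 held 55.2% with manganese and 67.6% in the control. Of the cluster's counts, miR-1323 took 29.8% with manganese (26.7 to 33.1) and 38.03% in the control (26.8 to 50.3). The joined miR-522-5p entry took 14.3% (12.01 to 16.9) with manganese and 8.45% (3.16 to 17.5) in the control. For miR-512-3p the shares were 11.1% (9.02 to 13.4) with manganese and 19.7% (11.2 to 30.9) in the control. All 3 pairs of intervals overlap, that of miR-512-3p by the least, and the differences in share were not tested.

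The other entries of chromosome 19 and 2 other large clusters had folds below 1. The hairpins of miR-371a, miR-371b, miR-372 and miR-373, which follow the cluster on 19q13 and are known from pluripotent cells, gave 8 entries that were all at 0 in both libraries, so no fold can be given for them. The other 139 entries of chromosome 19 had 15853 counts with manganese and 17556 in the control, a fold of 0.916 (0.897 to 0.936). The imprinted cluster of 14q32, which is also expressed in placenta, had 2130 counts with manganese and 2329 in the control over 91 entries, a fold of 0.928 (0.874 to 0.984). The testis-linked cluster of Xq27 had 82 counts with manganese and 171 in the control over 18 entries, a fold of 0.486 (0.369 to 0.637). The intervals of these 3 sets lie below that of the 19q13 cluster, for counting error only.

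The summed counts of the blood cell, mesenchyme and muscle, and epithelial lists were also higher in the manganese library, though not every entry was. Of the 13 entries of the blood cell list, 12 had counts, and the list held 176969 counts with manganese (16.2% of the library) and 10136 in the control (0.952%), 17.7-fold higher (17.4 to 18.1). Most of it was miR-486-5p, with 174822 counts with manganese and 9597 in the control. Without miR-486-5p the list had 2147 counts with manganese and 539 in the control, a fold of 4.04 (3.68 to 4.45). Of the 8 entries of that list with at least 20 counts, 7 were at least 2-fold higher, against 12.9% of all 403 such entries. As in the cluster, this count is no independent support, because 5 of the 8 had fewer than 20 control counts. The other 3 were miR-486-5p, the red cell miRNA miR-451a, with 1564 counts with manganese and 50 in the control (31.7-fold, 23.9 to 42.9), and miR-16-2-3p, which had 288 counts with manganese and 466 in the control (0.627-fold, 0.539 to 0.728). The mesenchyme and muscle list had 3088 counts with manganese and 1112 in the control (2.82-fold, 2.63 to 3.02), with counts for 5 of 10 entries. Its highest entry, miR-10b-5p, had 2631 counts with manganese and 1049 in the control (2.54-fold, 2.37 to 2.74), and without it the list had 457 with manganese and 63 in the control, a fold of 7.36 (5.65 to 9.74). The smooth muscle miRNA miR-143-3p had 354 counts with manganese and 26 in the control, a fold of 13.8 (9.27 to 21.4). The joined entry of miR-199b-3p and miR-199a-3p had 76 with manganese and 25 in the control (3.08-fold, 1.94 to 5.06), and the muscle miRNA miR-1-3p had 25 with manganese and 10 in the control (2.54-fold, 1.18 to 5.92). The arm miR-145-5p had 2 counts with manganese and 2 in the control, too few for a fold. The entries miR-199a-5p, miR-214-3p, miR-133a-3p, miR-199b-5p and miR-145-3p were at 0 in both libraries. The endothelial list had 47 with manganese and 30 in the control (1.59-fold, 0.984 to 2.60), and without miR-126-3p it had 8 with manganese and 11 in the control (0.738-fold, 0.258 to 2.01). The part of these cell types in the difference of the 19q13 cluster was not tested.

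The 13 entries of the pluripotent and germ cell list were at 0 in both libraries, as was the liver miRNA miR-122-5p. Of the epithelial list, 6 of 7 entries had counts, 224 with manganese and 112 in the control (2.03-fold, 1.61 to 2.57). Most of these came from 3 arms of the epithelial miR-200 family. The arm miR-200b-3p had 74 counts with manganese and 32 in the control (2.35-fold, 1.53 to 3.67), miR-200a-3p had 70 with manganese and 45 in the control (1.58-fold, 1.07 to 2.35), and miR-429 had 60 with manganese and 29 in the control (2.10-fold, 1.33 to 3.39). The arms miR-200c-3p, miR-141-3p and miR-205-5p had 7, 2 and 11 counts with manganese and 3, 0 and 3 in the control, and miR-203a-3p was at 0 in both.

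**Figure D4:**
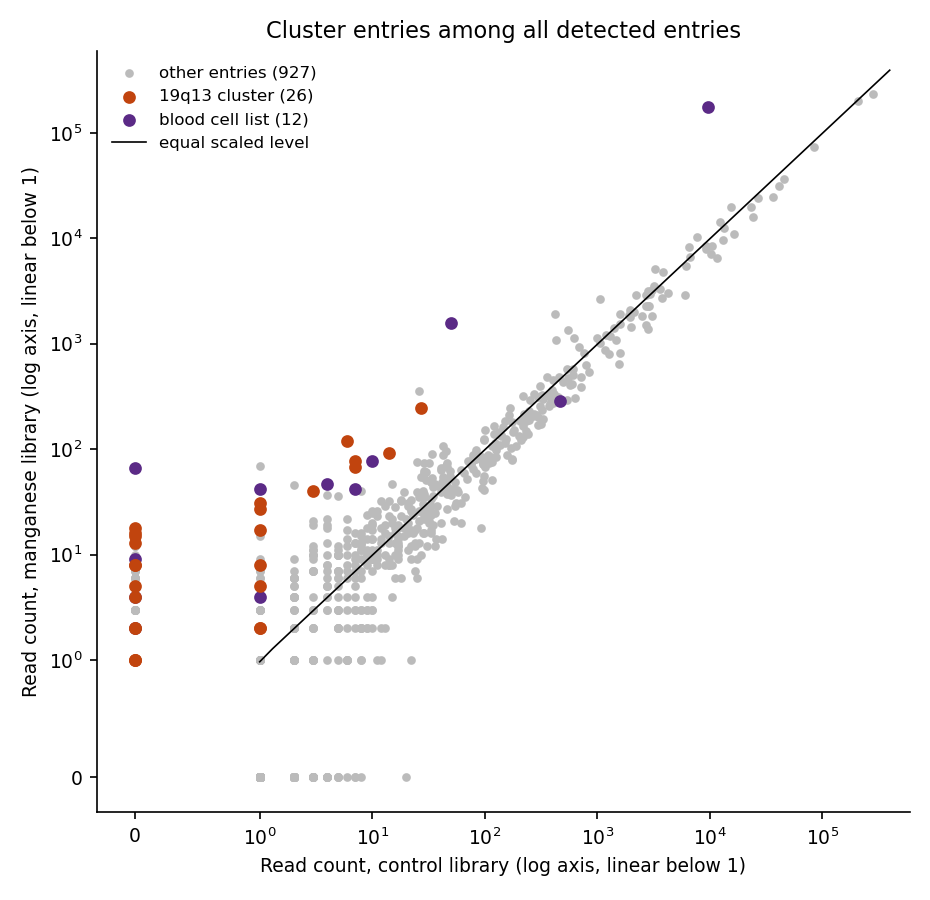
Read counts of the 965 entries with counts, manganese library against control library, on log axes that are linear below 1, with the cluster, the blood cell list and all other entries in separate colours and a line at equal scaled level. The 26 entries of the cluster lie above the line, at counts far below those of miR-486-5p, the highest point of the blood cell list.

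**Figure D5:**
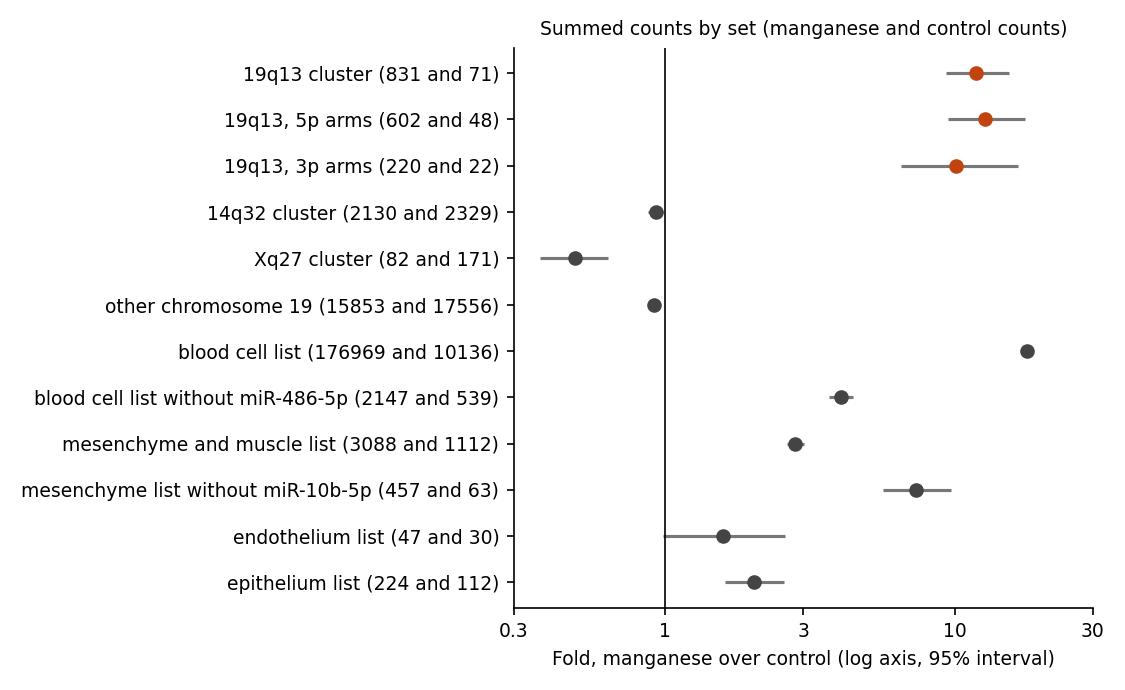
Folds of summed counts, manganese over control, with exact 95% counting intervals on a log axis, for the 19q13 cluster and its arms, 3 other sets of miRNAs by location and 4 marker lists, 2 of them also without their highest entry, with the summed counts of the manganese and control libraries in brackets. The cluster lies at 11.9 and the blood cell list at 17.7 or, without miR-486-5p, at 4.04. The mesenchyme and muscle list lies at 2.82 or, without miR-10b-5p, at 7.36. The epithelium list lies at 2.03 and the endothelium list at 1.59, and the other sets by location lie below 1.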

How the data were processed

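Small RNA counts of 1 manganese and 1 control library were used. The deposited table holds whole-number counts per mature miRNA entry, on build hg38, per the submitters' processing notes. No label or header names the aligner, counter, miRNA annotation, trimming or filters. The authors' other deposited table gave a count difference, the manganese count minus the control count in 2904 of 2904 entries, with a tolerance of 0 counts. Columns were assigned by names that match the sample descriptions.

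Library sizes were scaled with TMM factors (edgeR 4.0.16, R 4.3.3), 0.981 for the manganese library and 1.02 for the control. Folds have exact conditional binomial (Clopper-Pearson) intervals at 95% (scipy 1.17.1, numpy 2.4.6, pandas 2.3.3, Python 3.11.15, matplotlib 3.10.9). For a control count of 0, a floor of 3 counts was used. An entry was called when its fold was at least 2 either way, its interval left out 1-fold and it had at least 20 counts over both libraries. The rule and its intervals were tested on simulated counts that held counting error only. That test says nothing about variation between cultures. Sequences and positions came from RefSeq (GRCh38.p14) and GENCODE 29, by exact name. Entries were placed in the 14q32, Xq27 and chromosome 19 sets by these positions.

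Named entries were members with counts, same-seed or neighbouring entries and markers. Members and lists were chosen with earlier results of these data known. Alternatives were other scalings (total counts, DESeq2 1.42.0 size factors, totals without the 5 most abundant entries or the blood cell list), filters of 10 or 100 counts or none, a rule of 1.5-fold, a rule that the interval bound reach 2-fold, pseudocounts of 1 and 5, and other sets of entries.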

Additional observations from a re-analysis of the deposited data

How the results depend on the processing

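No paired analysis was possible because each group held 1 library, and for the same reason no library could be left out. The fold of the cluster's summed counts lay between 11.4 and 13.5 over the 5 scalings and kept its direction. With a coefficient of variation of 20% assumed between cultures, its interval was 6.52 to 21.6. All 114 recomputed values of single entries of the cluster stayed inside their counting intervals. Many of these intervals are wide or, for a control of 0, have no upper end, so this says little. With a pseudocount of 5, miR-516a-5p fell from 31.4-fold to 6.09-fold and miR-515-5p from 27.4-fold to 5.41-fold. With a pseudocount of 1, miR-519a-3p rose from 6.09-fold to 19.3-fold. Of the 212 recomputed values, 0 reversed a difference whose interval left out 1-fold. Such a reversal was hardly possible for the cluster's folds, since the other scalings multiplied them by 0.961 to 1.14, and counts of entries could not reverse. The count of cluster entries at least 2-fold higher depended on the filter, since it sets how many entries enter: 16 with no filter, 13 with at least 10 counts and 3 with at least 100, in place of 8. Over all entries the count higher was 82 with no filter, 17 with at least 100 counts and 26 when the interval bound had to reach 2-fold, in place of 52. The count lower was 15 without the 5 most abundant entries or without the blood cell list in the totals, 10 with at least 100 counts, 57 with a rule of 1.5-fold and 4 with the interval bound, in place of 26. Leaving those 5 entries out of the totals moved every log2 fold by 0.186. The cluster's median log2 fold was 2.34 with no filter and 2.62 with a pseudocount of 5, in place of 3.63. Without joined entries, the seed UCGUGCA kept only miR-517c-3p, 2.71-fold higher against the floor, with an exact interval that began at 1.73-fold. The sums with miR-517-5p and without the joined 5p entry, the 5p sum without miR-1323, and the marker lists without their highest entry were added after the data were seen. In the control library 71 counts carry all 13 detected entries, which limits the precision of their folds.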
